A study of Mus musculus with 17 samples.

Results

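Glycolysis splits glucose into pyruvate through a chain of cytosolic enzymes, most of which exist as several isozymes encoded by separate genes. The 33 genes described here, out of 35971 genes in the series, were chosen by name as members of the pathway. They comprise the hexokinases, the phosphofructokinases and the other enzymes down to lactate dehydrogenase, the glucose carriers Slc2a1 and Slc2a3, the lactate carriers Slc16a1 and Slc16a3, the Pfkfb enzymes, which set the level of the phosphofructokinase activator fructose 2,6-bisphosphate, and the Pdk kinases, which switch off pyruvate dehydrogenase. All 33 had enough counts to be tested.

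The questions addressed were how these genes and the balance between their isozymes differed in kidneys that express the PRCC-TFE3 fusion, and how they differed further when the α subunits of the hypoxia-inducible factors, HIF1α and HIF2α, were deleted. RNA from whole mouse kidneys was turned into 17 stranded mRNA libraries, which were read from 1 end over 75 bases. All kidneys carried lsl-PRCC-TFE3, a fusion gene behind a stop cassette that Cre recombinase removes. The 4 Cre(-) kidneys lacked KSP-Cre and so served as controls; replicates 1 and 2 also carried HIF1af/f, whereas replicates 3 and 4 carried no flox allele. The 3 PRCC-TFE3 KI kidneys (KI) had KSP-Cre(+), the 4 PRCC-TFE3 KI/Hif1a KO kidneys (Hif1a KO) had KSP-Cre(+) with HIF1af/f, the 3 PRCC-TFE3 KI/Hif2a KO kidneys (Hif2a KO) had KSP-Cre(+) with HIF2af/f, and the 3 PRCC-TFE3 KI/Hif1a/Hif2a DKO kidneys (DKO) had KSP-Cre(+) with both flox alleles. KSP-Cre is driven by the cadherin 16 promoter and acts in the epithelium of kidney tubules, so that vessels, stroma and leukocytes kept all alleles and contributed to the RNA. The labels used here give neither age nor sex, and no group holds a HIF deletion without PRCC-TFE3.

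Library totals ran from 16504419 to 24668827 counts (median 18635282), and since library numbers run mostly group by group, the order of the libraries cannot be told apart from genotype. The labels do not state that the libraries of a group came from separate animals, and p-values measure the spread between these libraries. Values are CPM, counts scaled to TMM-adjusted library totals, which compare libraries, or TPM, which also correct for transcript length and compare isozymes. At gene level Hif1a in Hif1a KO kidneys differed from KI kidneys by a log2 fold change of -0.21 (SE 0.13, edgeR adjusted p = 0.372), and Epas1, the HIF2α gene, in Hif2a KO kidneys by -0.33 (SE 0.09, edgeR adjusted p = 0.0788). Counts over whole genes in whole kidneys do not show the state of the floxed exons, so these values neither check nor contradict the labels. In bulk RNA, fewer cells of a type and less RNA per cell cannot be told apart. This bears on the proximal tubule, whose 10 markers were all lower in KI than in Cre(-) kidneys (summed level 359 to 412 TPM against 3566 to 4114 TPM), and on the thick ascending limb and distal tubule, whose 7 markers were all lower as well (605 to 1040 TPM against 2925 to 3840 TPM). The labelled tissue was nevertheless evident, since no group had a summed level of either list near 0.

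In the normal kidney, cells of the proximal tubule live mainly on fatty acids and make glucose with enzymes such as fructose bisphosphatase that work against glycolysis, whereas distal segments consume glucose. Muscle, brain and liver use their own isozymes, and many tumours switch from the isozymes of their tissue of origin to hexokinase 2 and the M2 form of pyruvate kinase. HIF1α is known to activate many glycolytic genes when oxygen is low, and HIF2α activates an overlapping set of genes.

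Of the 33 members, 26 passed the threshold between KI and Cre(-) kidneys, 15 higher and 11 lower. That is 78.8% of the members, where 60.9% of all tested genes passed (31.6% higher and 29.3% lower), so that much of the count reflects how widely these kidneys differed. Among the members, a few changed far more than the rest. Hk2, Eno2, Eno3 and Slc16a3 rose between 12.4-fold and 262-fold, whereas the median log2 fold change was 0.10 over the members and 0.03 over all genes. The share of all genes with changes this large was not counted. Within several families, 1 isozyme rose and another fell.

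**Figure D1:**
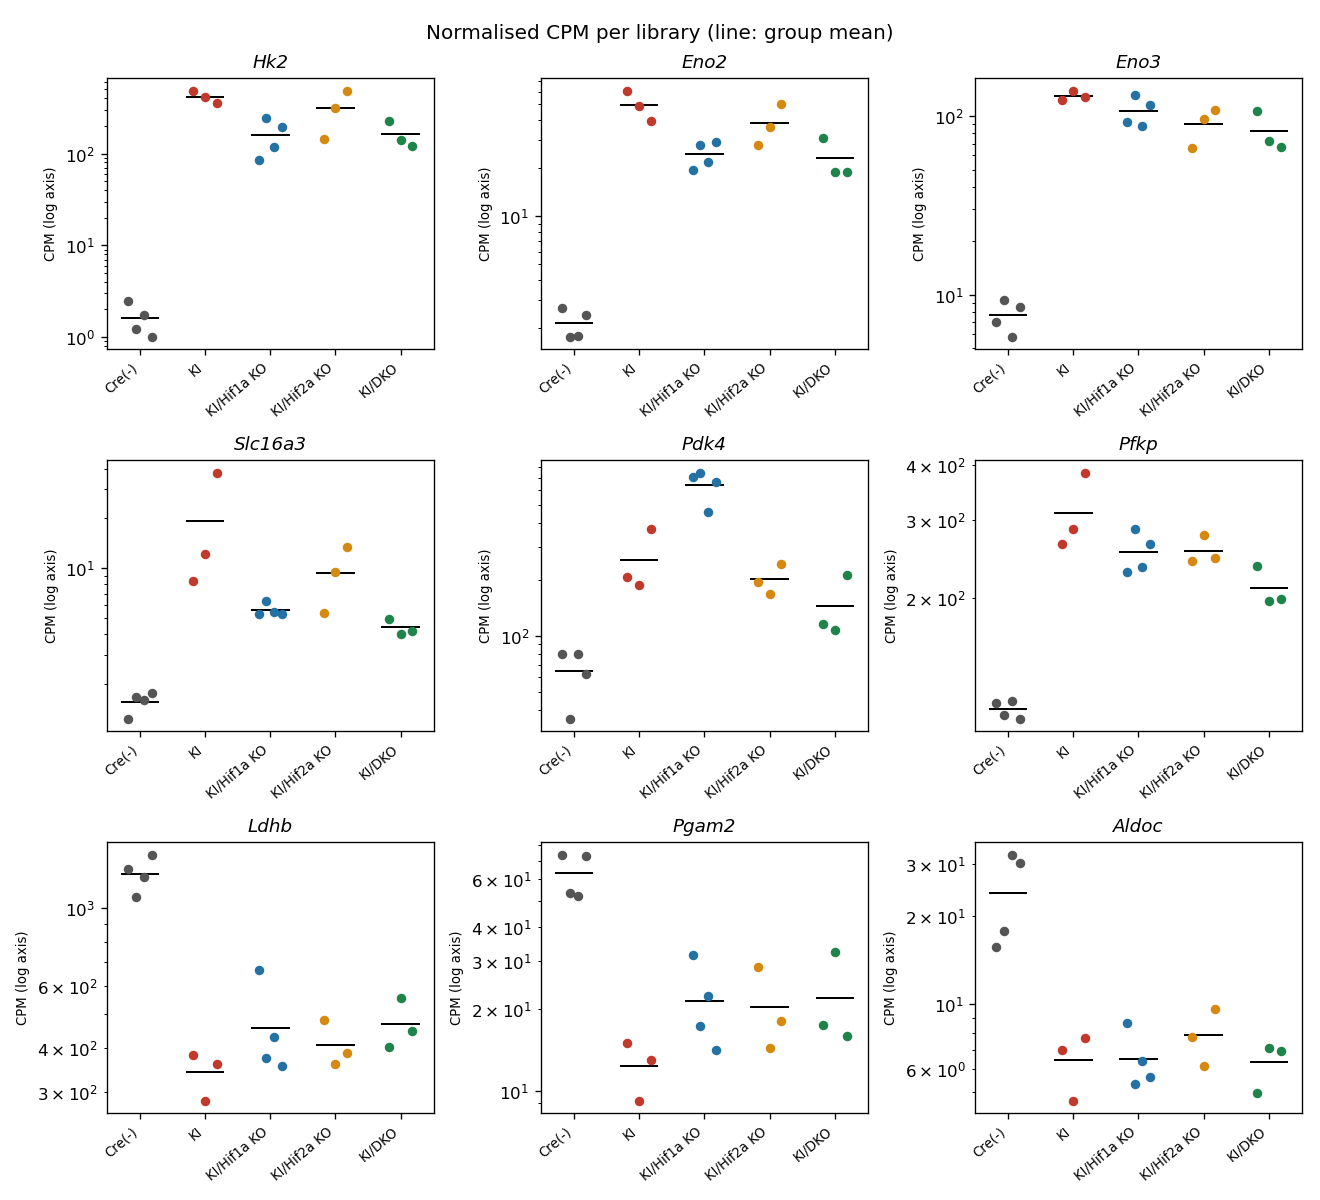
Normalised CPM (log axis) of 9 members in each of the 17 libraries, with 1 point per library, grouped by genotype, and a line at the group mean. Hk2, Eno2, Eno3, Slc16a3 and Pfkp lie higher in every KI library than in any Cre(-) library, Ldhb, Pgam2 and Aldoc lie lower, and Pdk4 is highest in the Hif1a KO libraries.

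Hexokinases trap glucose in the cell as glucose 6-phosphate. Hk2, the inducible isozyme of muscle, fat and many tumours (ENSMUSG00000000628.10, chromosome 6, 82725025 to 82774454 of GRCm38, minus strand), stood at 2.47, 1.23, 1.72 and 1.01 CPM in the 4 Cre(-) kidneys and at 477, 417 and 355 CPM in the 3 KI kidneys. The lowest KI value lay far above the highest Cre(-) value, with a log2 fold change of 8.03 (SE 0.52, edgeR adjusted p = 7.77e-09). Hk3, an isozyme of myeloid cells, was a minor member at 0.69, 0.48, 0.60 and 0.63 CPM in Cre(-) and 1.5, 2.96 and 1.60 CPM in KI kidneys (log2 fold change 1.75, SE 0.28, edgeR adjusted p = 5.29e-05). Hk1, the housekeeping isozyme, moved the other way, from 175, 176, 244 and 251 CPM to 111, 116 and 155 CPM (log2 fold change -0.73, SE 0.14, edgeR adjusted p = 0.000397). Every KI value of Hk1 lay below every Cre(-) value, and among the Cre(-) kidneys the pair with HIF1af/f was the lower pair.

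Enolases convert 2-phosphoglycerate to phosphoenolpyruvate, and 2 isozymes with a restricted range in adult tissue accounted for the other large increases. Eno2, the neuronal enolase (ENSMUSG00000004267.16, chromosome 6, 124760053 to 124769673, minus strand), was at 2.67, 1.77, 1.79 and 2.40 CPM in Cre(-) and at 60.9, 48.7 and 39.4 CPM in KI kidneys, 23.1-fold higher (log2 fold change 4.53, SE 0.27, edgeR adjusted p = 3.87e-09). Eno3, the muscle enolase (ENSMUSG00000060600.15, chromosome 11, 70657202 to 70662513, plus strand), was at 6.99, 9.37, 5.82 and 8.52 CPM in Cre(-) and at 122, 138 and 128 CPM in KI kidneys, 16.7-fold higher (log2 fold change 4.07, SE 0.22, edgeR adjusted p = 1.41e-09). The ubiquitous Eno1 did not pass (780, 1143, 743 and 768 CPM against 558, 491 and 847 CPM, edgeR adjusted p = 0.0655), and its groups overlapped.

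Slc16a3 encodes MCT4, a carrier that exports lactate from glycolytic cells (ENSMUSG00000025161.16, chromosome 11, 120948480 to 120960868, plus strand). It was at 1.23, 1.66, 1.59 and 1.77 CPM in Cre(-) and at 8.39, 12.1 and 37.8 CPM in KI kidneys, 12.4-fold higher (log2 fold change 3.63, SE 0.43, edgeR adjusted p = 3.17e-06). The groups did not overlap, although KI replicate 3 lay far above the other KI libraries. The related carrier Slc16a1 (MCT1), which moves lactate in either direction, was lower, at 30.8, 29.2, 23.0 and 16.5 CPM in Cre(-) and 12.5, 9.64 and 16.2 CPM in KI kidneys (log2 fold change -0.96, SE 0.25, edgeR adjusted p = 0.00343).

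The promoters of these 4 genes and of Pdk4, the member that differed between Hif1a KO and Hif2a KO kidneys, are shown because they let a reader see where the core letters of a hypoxia response element occur. Each is a RefSeq window on GRCm38.p6 that runs from 250 bases before the annotated start to 50 bases from it on, written 5′ to 3′ on the strand of the gene. Capitals mark ACGTG or GCGTG on either strand, so that a match to the opposite strand reads CACGT or CACGC. The windows are Hk2 chr6:82774405-82774704 (minus strand), Eno2 chr6:124769624-124769923 (minus strand), Eno3 chr11:70656926-70657225 (plus strand), Slc16a3 chr11:120948817-120949116 (plus strand) and Pdk4 chr6:5496229-5496528 (minus strand).
Hk2: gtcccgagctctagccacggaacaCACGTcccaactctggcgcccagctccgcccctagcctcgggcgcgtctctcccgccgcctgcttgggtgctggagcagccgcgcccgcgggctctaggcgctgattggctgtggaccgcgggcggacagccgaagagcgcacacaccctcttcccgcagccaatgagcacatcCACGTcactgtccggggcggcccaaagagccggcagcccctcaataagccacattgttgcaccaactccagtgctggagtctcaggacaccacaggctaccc
Eno2: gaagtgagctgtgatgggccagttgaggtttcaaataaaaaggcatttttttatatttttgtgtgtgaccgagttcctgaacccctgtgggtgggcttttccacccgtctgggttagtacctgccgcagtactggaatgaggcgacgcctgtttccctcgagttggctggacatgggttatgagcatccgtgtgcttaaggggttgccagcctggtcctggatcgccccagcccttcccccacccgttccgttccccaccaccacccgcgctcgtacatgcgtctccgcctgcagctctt
Eno3: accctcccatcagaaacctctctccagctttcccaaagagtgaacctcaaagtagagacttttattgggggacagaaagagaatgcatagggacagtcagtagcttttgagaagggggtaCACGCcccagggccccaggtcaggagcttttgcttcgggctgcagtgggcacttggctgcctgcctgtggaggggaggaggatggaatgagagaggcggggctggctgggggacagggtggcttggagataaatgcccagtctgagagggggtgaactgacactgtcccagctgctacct
Slc16a3: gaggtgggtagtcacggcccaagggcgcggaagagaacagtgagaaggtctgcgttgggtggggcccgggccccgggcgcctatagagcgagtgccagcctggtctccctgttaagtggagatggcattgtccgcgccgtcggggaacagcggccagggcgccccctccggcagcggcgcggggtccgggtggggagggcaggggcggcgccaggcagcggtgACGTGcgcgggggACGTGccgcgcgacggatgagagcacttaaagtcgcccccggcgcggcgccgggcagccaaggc
Pdk4: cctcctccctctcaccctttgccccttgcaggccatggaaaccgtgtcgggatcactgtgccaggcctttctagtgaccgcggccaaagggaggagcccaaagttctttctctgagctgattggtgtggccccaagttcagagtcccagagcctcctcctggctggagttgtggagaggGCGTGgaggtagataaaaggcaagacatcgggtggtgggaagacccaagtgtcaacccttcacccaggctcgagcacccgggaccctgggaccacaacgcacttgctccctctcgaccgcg

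Counted from the start, with the start base as position +1 and no position 0, the Hk2 window held 2 matches, whose first bases lay at -226 and -52, and the Slc16a3 window held 2 matches, at -27 and -14. Eno3 had 1 match at -130 and Pdk4 had 1 at -71, whereas the Eno2 window had 0. Windows were found for 32 of the 33 members (52 windows, since some genes have several starts); Slc2a3 had no entry. ACGTG or GCGTG occurred in 37 of the 52 member windows (71.2%, in 27 members) and in 43.77% of all 32851 windows. ACGTG alone was in 42.3% of member windows and 19.62% of all windows, and GCGTG in 50% and 32.39%. CACGTG, which contains ACGTG on both strands and so overlaps it, was in 11.5% of member windows and 7.15% of all windows. TCATGTGA and TCACGTGA, forms of the element that factors of the TFE3 family recognise, were in 0 of 52 member windows, against 0.99% and 0.97% of all windows. These short words are frequent, a match is no evidence of binding, and no match says only that the letters are not in this window.

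Phosphofructokinase commits glucose to the pathway. Pfkp, the platelet-type isozyme, was at 116, 109, 117 and 107 CPM in Cre(-) and 266, 287 and 384 CPM in KI kidneys (log2 fold change 1.47, SE 0.12, edgeR adjusted p = 6.49e-08), with no overlap. Pfkm, the muscle type, was at 72.3, 66.5, 65.7 and 71.0 CPM against 108, 101 and 87.5 CPM (log2 fold change 0.52, SE 0.17, edgeR adjusted p = 0.0131). Pfkl, the liver type, was at 78.0, 80.2, 90.2 and 90.5 CPM against 66.6, 67.4 and 138 CPM and did not pass (edgeR adjusted p = 0.69). Its KI values straddled the controls, since replicate 3 was high, and without that library the log2 fold change was -0.34 (edgeR adjusted p = 0.0339). The Pfkfb enzymes that feed phosphofructokinase also differed among themselves: Pfkfb2 and Pfkfb3 rose 1.87-fold and 1.76-fold, whereas Pfkfb4 fell from 8.71, 8.78, 7.61 and 9.09 CPM to 5.98, 6.52 and 6.22 CPM (log2 fold change -0.45, SE 0.15, edgeR adjusted p = 0.0143). Pfkfb1 passed at a low level (1.44, 1.02, 0.79 and 1.45 CPM against 3.10, 6.52 and 1.43 CPM, log2 fold change 1.65, SE 0.45, edgeR adjusted p = 0.00472), but its lowest KI value lay within the Cre(-) range.

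Of the enzymes between glucose 6-phosphate and phosphoglycerate, some rose, some fell and some did not pass. Gpi1, the isomerase that follows hexokinase, was at 562, 511, 570 and 609 CPM in Cre(-) and 737, 692 and 1127 CPM in KI kidneys (log2 fold change 0.60, SE 0.13, edgeR adjusted p = 0.00126). Aldoa, the aldolase of muscle and of most growing cells, was at 855, 879, 735 and 854 CPM against 1056, 1030 and 1468 CPM (log2 fold change 0.51, SE 0.13, edgeR adjusted p = 0.00238). Both were higher in every KI library, and in both replicate 3 was the highest. Aldoc, the brain aldolase, fell from 15.6, 17.8, 32.4 and 30.2 CPM to 6.96, 4.68 and 7.65 CPM (log2 fold change -1.90, SE 0.28, edgeR adjusted p = 2.95e-05). As with Hk1, the Cre(-) pair with HIF1af/f was the lower pair. Tpi1 (478, 474, 400 and 429 CPM against 387, 336 and 530 CPM) and Gapdh (2004, 1621, 1797 and 2105 CPM against 1515, 1318 and 2086 CPM), enzymes of triose metabolism that are often used as reference genes, did not pass (edgeR adjusted p = 0.593 and 0.263), and their groups overlapped.

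In the payoff part of the chain, the phosphoglycerate enzymes were lower. Pgam2, the muscle mutase, fell from 73.8, 53.4, 52.0 and 73.2 CPM to 14.9, 9.21 and 12.9 CPM (log2 fold change -2.35, SE 0.33, edgeR adjusted p = 1.79e-05), and Pgam1, its widely expressed counterpart, fell from 412, 409, 377 and 356 CPM to 198, 211 and 307 CPM (log2 fold change -0.70, SE 0.12, edgeR adjusted p = 0.000139). Neither overlapped with the controls. Pgk1, phosphoglycerate kinase, passed with a log2 fold change of -0.49 (range 174 to 279 CPM against 116 to 192 CPM, SE 0.18, edgeR adjusted p = 0.0302), but its groups overlapped, and 52.8% of its 75-base stretches also occur in near-identical copies that took 51.57% of the joint counts, so that its own level is uncertain.

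At the end of the chain, Pkm, which gives the M1 and M2 forms of pyruvate kinase, was at 389, 350, 480 and 457 CPM in Cre(-) and 546, 500 and 720 CPM in KI kidneys (log2 fold change 0.49, SE 0.13, edgeR adjusted p = 0.00523). Pklr, the liver and red cell isozyme, was at 43.9, 73.6, 49.1 and 38.0 CPM against 84.5, 78.1 and 144 CPM (log2 fold change 1.00, SE 0.22, edgeR adjusted p = 0.000911). Both were higher in all KI libraries. Ldhb, the lactate dehydrogenase subunit of oxidative tissue, fell from 1294, 1075, 1224 and 1417 CPM to 383, 284 and 359 CPM (log2 fold change -1.87, SE 0.21, edgeR adjusted p = 1.55e-06), whereas Ldha, the subunit of glycolytic tissue, stayed within its spread (360, 396, 320 and 333 CPM against 301, 278 and 436 CPM, edgeR adjusted p = 0.732).

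Among the kinases that inhibit pyruvate dehydrogenase, Pdk4, the isozyme of fasting and fat oxidation, was at 80.3, 36.1, 79.7 and 62.8 CPM in Cre(-) and 207, 188 and 372 CPM in KI kidneys (log2 fold change 1.98, SE 0.31, edgeR adjusted p = 4.71e-05). The kinases Pdk2 and Pdk3 went down. Pdk2 fell from 323, 293, 296 and 341 CPM to 142, 146 and 182 CPM (log2 fold change -1.0, SE 0.11, edgeR adjusted p = 1.84e-06), and Pdk3 from 51.9, 41.6, 48.5 and 34.0 CPM to 25.3, 21.3 and 25.1 CPM (log2 fold change -0.88, SE 0.14, edgeR adjusted p = 6.71e-05). Pdk1, a known HIF1α target, had a log2 fold change of -0.44 (SE 0.17, edgeR adjusted p = 0.039) with overlapping groups. The glucose carriers Slc2a1 (GLUT1, 69.2 to 80.2 CPM in Cre(-) and 62.5 to 128 CPM in KI kidneys) and Slc2a3 (GLUT3, 2.12 to 3.11 CPM and 1.2 to 2.42 CPM) did not pass (edgeR adjusted p = 0.473 and 0.0793).

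Some members share sequence or position with other genes. Gapdh shares 22.6% of its 75-base stretches with copies that held 7.17% of the joint counts, and Eno1 23.0% with copies that held 3.66%, so that their levels are less certain than those of Hk2 or Eno2. Exons of Hk3, Pfkfb1, Pfkm, Pfkfb2, Pfkp and Pklr overlap an exon of a gene on the opposite strand. The overlapping genes held at least 9.78% of the member's counts. Hk1, Gpi1, Aldoa, Tpi1, Gapdh and Slc2a1 have such a partner too, with at most 4.5%. The strand setting of the counting is not given in the sources used here. For Hk3 and Pfkfb1 the partner (Unc5a and Apex2) held more counts than the member itself (142.76% and 547.51% of its counts), so that reads of the 2 genes may not be separable.

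The balance of directions depended on the scale between libraries. With limma on log2(TPM + 1), the median over all genes was 0.38 in place of 0.03, 78.2% of the genes that passed were higher in place of 51.9%, and the members split into 20 higher and 6 lower in place of 15 and 11. Under that scale Tpi1, Ldha and Pdk1 had positive values of 0.37, 0.35 and 0.50, which lie near the shift of the median gene. Hk2, Eno2, Eno3, Slc16a3, Pfkp and Pdk4 stayed past the threshold in the same direction under all 16 alternatives tried, as did Ldhb, Pgam2, Aldoc and Pdk2.

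**Figure D2:**
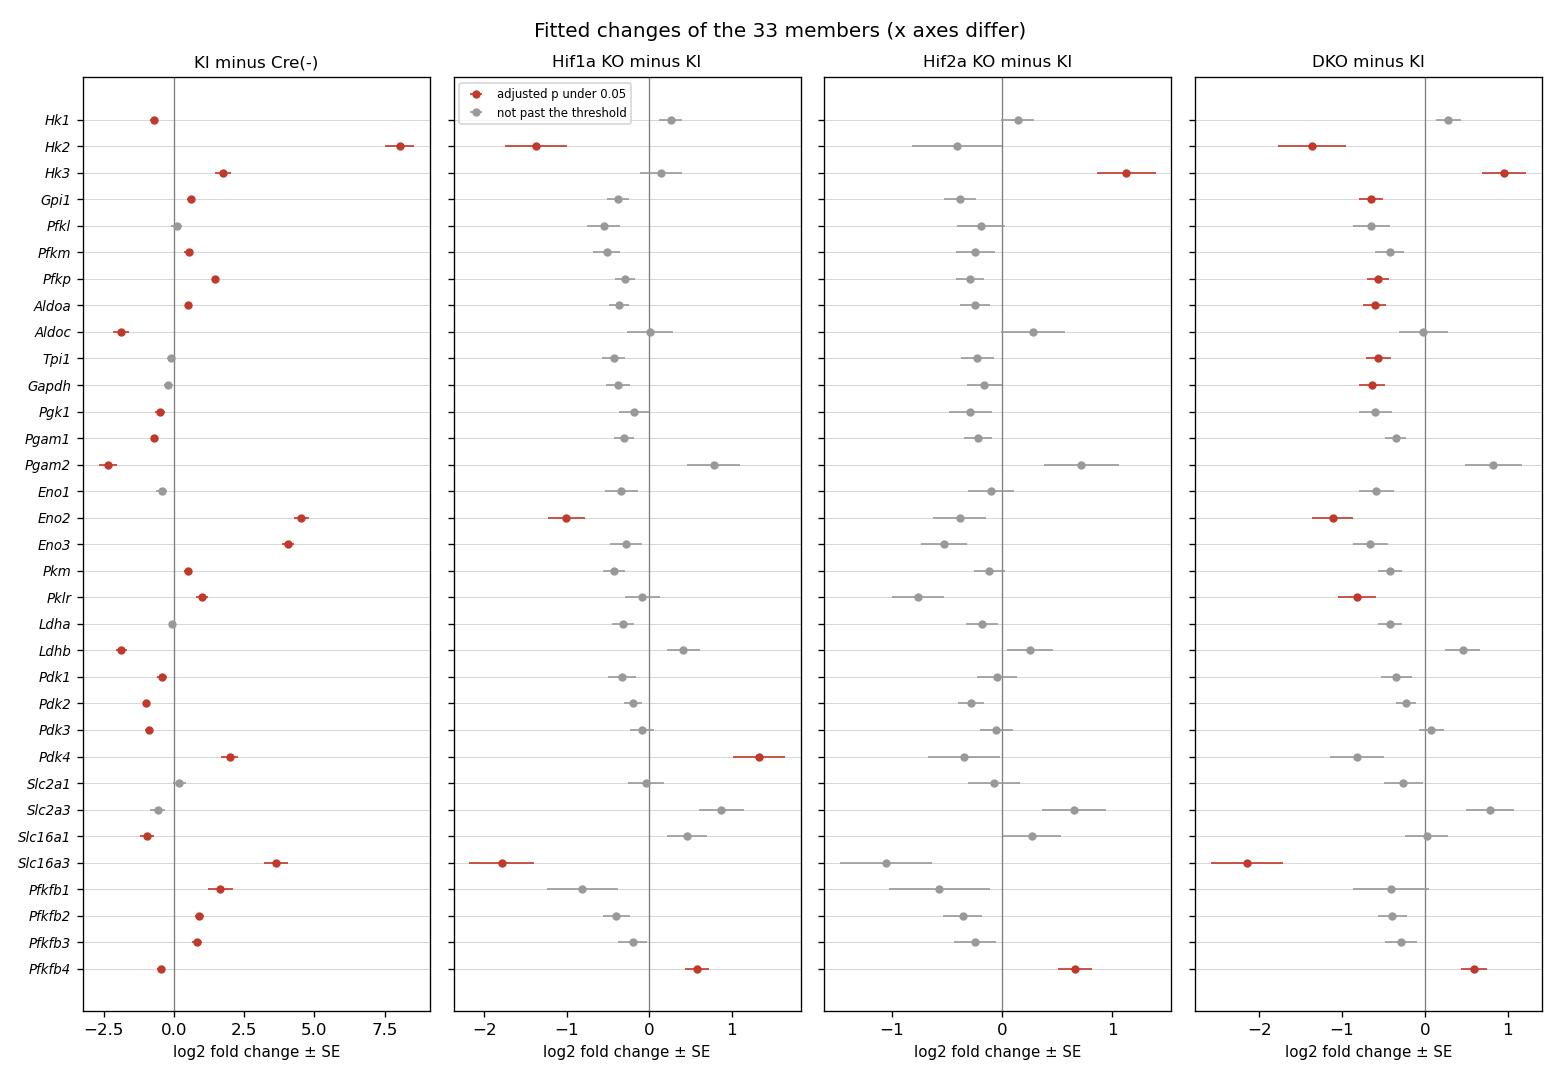
Log2 fold change with its standard error of each of the 33 members in 4 comparisons, in the order of the pathway; red points passed the threshold, and the x axes differ between panels. The KI against Cre(-) panel spans -2.35 to 8.03, whereas the panels for the HIF deletions span -2.15 to 1.33.

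Markers of other cell types moved between these groups too. Of 9 leukocyte markers 6 were higher and 0 lower in KI kidneys, with summed levels of 85 to 108 TPM in Cre(-) and 2001 to 2204 TPM in KI kidneys. Most of this was Cd68, a lysosomal gene, at 1560 to 1750 TPM in KI kidneys. The pan-leukocyte marker Ptprc (CD45) had a log2 fold change of 1.03 (SE 0.42, edgeR adjusted p = 0.0463). S100a8 was at 0 in Cre(-) replicate 3. Of the skeletal muscle markers, 4 of 7 could be tested, of which 2 were higher and 1 lower, and their sum ran from 5.85 to 7.42 TPM in Cre(-) and from 7.54 to 9.08 TPM in KI kidneys. Acta1, which defines muscle, lay below 1 TPM in both groups and Myh4 was at 0 in all KI libraries. Of the neuronal markers, 5 of 6 could be tested, of which 3 were higher and 0 lower, with a sum of 7.1 to 14.3 TPM against 19.0 to 29.4 TPM, mostly Uchl1, while Snap25 was at or near 0. The adipocyte sum reached 3551 TPM in KI replicate 2 and was 141 TPM in the lowest KI library, beside 74 to 201 TPM in Cre(-) kidneys, and 3 of its 6 markers were higher. Of 8 collecting duct markers 7 were lower and 1 higher, and of 5 endothelial markers 3 were lower by edgeR. The endothelial sum overlapped, at 116 to 180 TPM in Cre(-) and 142 to 147 TPM in KI kidneys. The erythroid sum, which bears on the red cell isozyme Pklr, was 809 to 1866 TPM in Cre(-) and 63.4 to 1153 TPM in KI kidneys, and 0 of its 5 markers passed by edgeR (2 at an unadjusted p under 0.05). The highest of these KI values was that of replicate 3, where Hba-a1 stood at 198 TPM against 10.9 and 15.1 TPM in the other KI libraries. This is also the KI library with the highest Pklr, and with the highest level of most enzymes from Gpi1 to Ldha. Among the controls, Cre(-) replicate 4 had the highest Hba-a1 (324 TPM) and the lowest Pklr (38.0 CPM). The part of these cell types in the members' changes was not tested. Hk3, at 1.5 to 2.96 CPM in KI kidneys, is itself expressed mainly in myeloid cells.

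Genes of the same pathway outside the 33 were taken from 4 lists chosen by function. Of the 6 testable other isozymes, 3 were lower and 0 higher in KI kidneys, among them Ldhd (log2 fold change -2.46) and Bpgm (-0.37). Of 13 other hexose and lactate carriers, 9 were lower and 0 higher, led by Slc5a2 (SGLT2, -4.66), Slc2a5 (GLUT5, -3.52) and Slc16a7 (-2.15), the first of which defines the early proximal tubule. Of the 11 genes of pyruvate dehydrogenase and pyruvate entry, 10 were lower, led by Pcx (-2.59), Pdp2 (-2.11) and Dld (-1.41), and 1 was higher, Pdp1 (0.58), a phosphatase that reactivates the complex. Of 16 regulators and side branches, 6 were higher and 6 lower. Fbp1 (-4.43) and Gpd1 (-2.23), which serve glucose and glycerol 3-phosphate formation, were at the lower end and Trib3 (1.61) at the upper end. The median log2 fold changes of these lists were -0.53, -1.58, -0.88 and 0.07, beside 0.03 over all genes. The last list had no common direction, whereas most carriers and pyruvate dehydrogenase genes were lower. Most markers of the proximal tubule, the thick ascending limb and distal tubule, and the collecting duct were lower too, as given above. Their part in the changes of these lists was not tested.

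The shares of isozymes within a family are ratios within a library and do not depend on the scale between libraries. For each library the TPM of each isozyme was divided by the sum over its family, and 28 shares were compared between the 13 kidneys with PRCC-TFE3 and the 4 Cre(-) kidneys by an exact permutation test, two-sided, with adjustment over the 28. The smallest p this design allows is 0.00084, and 3 KI against 4 Cre(-) libraries alone could not go below 0.0571. Of the 28 shares, 19 passed, 10 higher and 9 lower.

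The clearest exchange was among hexokinases. Hk1 made up 94.6, 94.0, 95.9 and 96.9% of hexokinase TPM in the Cre(-) kidneys, but 19.3, 25.1 and 31.3% in the KI kidneys. Hk2 took its place, from 1.68, 0.93, 0.88 and 0.66% to 78.7, 72.6 and 67.0%. Over all PRCC-TFE3 kidneys the Hk2 share was 54.3% ± 15.4 (SD, n = 13) against 1.04% ± 0.445 (n = 4, exact permutation adjusted p = 0.00168). The total of the family was 70.7 TPM ± 11.6 (n = 4) in Cre(-) and 217 TPM ± 25.5 (n = 3) in KI kidneys, so that in TPM the rise of Hk2 was not only a replacement. Hk3 rose in share as well, from 0.332% to 1.19% (exact permutation adjusted p = 0.00471). Hkdc1, a further hexokinase-like gene, stayed between 1.34% and 4.81%.

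Enolases also shifted in share. Mean Eno1 was 495 TPM ± 141 in Cre(-) (SD, n = 4) and 495 TPM ± 114 in KI kidneys (n = 3). The family total was 506 TPM ± 142 in Cre(-) and 716 TPM ± 96.0 in KI kidneys. In TPM, Eno2 and Eno3 thus added to Eno1 and did not replace it, whereas in CPM Eno1 was lower without passing. Eno1 was 97.9, 98.3, 98.4 and 96.9% of enolase TPM in Cre(-) kidneys and 67.3, 62.8 and 75.6% in KI kidneys. Eno3 rose from a mean of 1.82% ± 0.592 (n = 4) to 24.1% ± 4.48 over all PRCC-TFE3 kidneys (n = 13) and Eno2 from 0.287% ± 0.121 to 4.79% ± 1.36 (exact permutation adjusted p = 0.00168 for each). These shares count all transcripts of a gene, coding or not. The leading Eno2 transcript in KI kidneys was Eno2-203, annotated as a retained intron, with 36.8% of Eno2 TPM. Over 19 alternatives the Eno2 difference was 1.64 to 4.69 percentage points and passed in all. In TPM, then, Eno3 and not Eno2 was the larger newcomer among enolases.

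**Figure D3:**
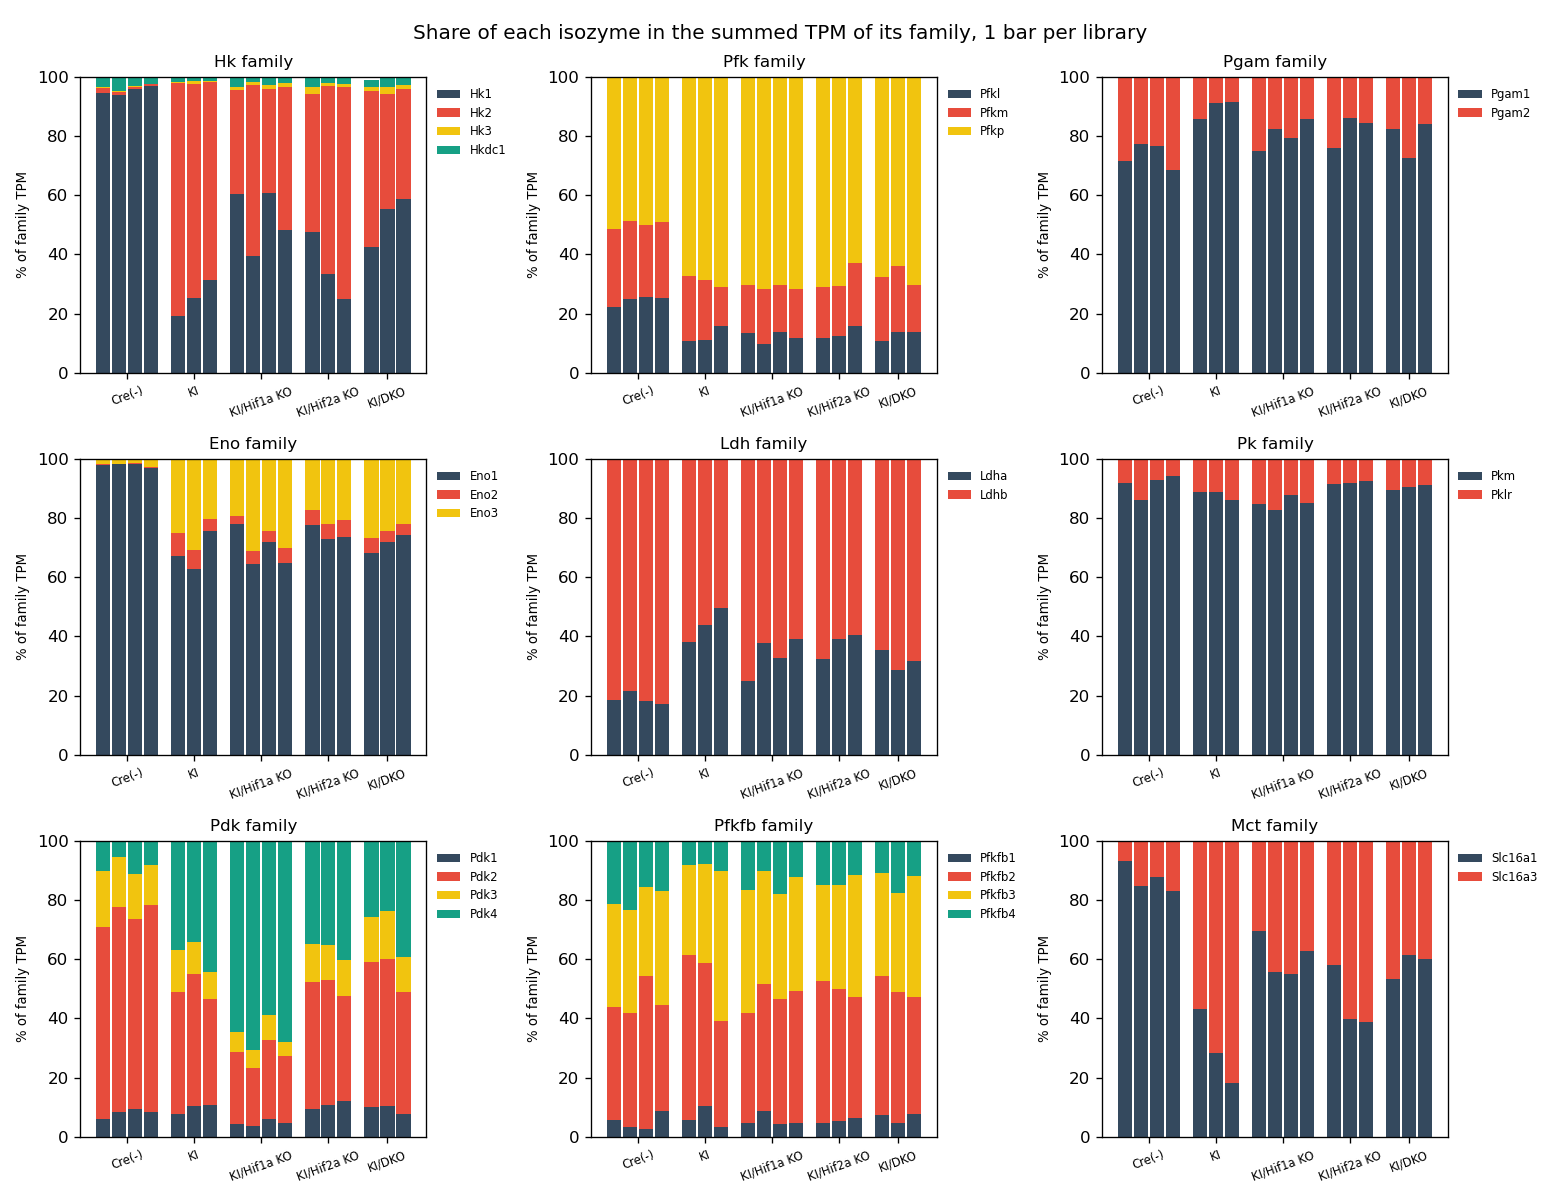
Share of each isozyme in the summed TPM of its family (%, stacked; isozymes under 1% in every library are not drawn), with 1 bar per library in 5 genotype groups and 1 panel per family. Hk2, Eno3, Pfkp, Pdk4, Ldha and Slc16a3 take more of their family in every library with PRCC-TFE3 than in any Cre(-) library.

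In the phosphofructokinases, Pfkp went from 51.4, 48.5, 50.2 and 49.2% to 67.4, 68.5 and 71.1% in KI kidneys. The shares of Pfkl (24.5% to 12.6% as means of Cre(-) and of all PRCC-TFE3 kidneys) and Pfkm (25.6% to 18.3%) fell. Each of these shares had an exact permutation adjusted p = 0.00168. In TPM neither Pfkl nor Pfkm was itself lower. Pfkl was at 23.74 to 28.81 TPM in Cre(-) and 30.94 to 55.16 TPM in KI kidneys. Pfkm was at 27.27 to 29.04 TPM and 45.58 to 62.46 TPM. The family total was 106.5 to 112.5 TPM in Cre(-) and 283.7 to 348.4 TPM in KI kidneys. In CPM Pfkm was higher and Pfkl did not pass. In the lactate dehydrogenases, Ldha went from 18.7, 21.6, 18.1 and 17.0% to 38.0, 44.0 and 49.6% in KI kidneys, which in CPM was the loss of Ldhb and no gain of Ldha. In the mutases Pgam1 went from 73.6% to 82.9% (exact permutation adjusted p = 0.0186), with overlapping groups. Among the kinases, Pdk2 fell from 67.4% ± 3.00 (n = 4) to 36.6% ± 10.1 (n = 13) and Pdk4 rose from 8.69% ± 2.5 to 44.3% ± 15.9, which made Pdk4 the largest or second largest share in every PRCC-TFE3 kidney. Pdk3 (16.0% to 10.8%, exact permutation adjusted p = 0.0183) and Pfkfb4 (19.2% to 12.6%, exact permutation adjusted p = 0.0166) lost share with overlapping groups. Of the 2 lactate carriers, Slc16a1 held 93.3, 84.8, 88.0 and 83.1% in Cre(-) kidneys and 43.1, 28.4 and 18.1% in KI kidneys, so that Slc16a3 was the larger carrier in all KI libraries. The shares of Pdk1, Pfkfb1, Pfkfb2, Pfkfb3, Hkdc1, Slc2a1 and of Pkm within the pyruvate kinases did not pass.

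Pkm gives its M1 and M2 forms by including either of a pair of exons of 167 bases each, on chromosome 9 at 59675029 to 59675195 (M1) and 59675568 to 59675734 (M2) of GRCm38, and 1 annotated transcript holds each. The M2 type made up 58.5, 67.8, 57.7 and 58.4% of the TPM of both transcripts in Cre(-) kidneys and 73.3, 68.9 and 72.8% in KI kidneys. Over all PRCC-TFE3 kidneys it was 69.0% ± 4.53 (n = 13) against 60.6% ± 4.82 (n = 4, exact permutation adjusted p = 0.0118), with overlap. The M2 type was thus the larger form in every kidney, controls included, and the difference was 8.38 percentage points. Pkm also shares 17.8% of its 75-base stretches with other genes, which held 0.09% of the joint counts.

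A switch of the leading transcript, defined as a transcript that leads in every Cre(-) library and in no KI library with another leading in all of those, occurred in 1 of the 33 members. In Hk2 the non-coding transcript Hk2-202 led by TPM in Cre(-) kidneys with a mean of 60.9%, at 0.35 to 0.55 TPM, and the protein-coding Hk2-201 led in KI kidneys with 70.8%. The switch was not seen in expected counts, where Hk2-201 led in every library (13.3 to 32.1 counts against 2.73 to 3.93 counts of Hk2-202 in Cre(-) kidneys), so it rests on a few reads over a short transcript.

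Deletion of Hif1a in PRCC-TFE3 kidneys was compared with the KI kidneys. Of the 33 members 5 passed, 15.2% beside 5.44% of all genes, and the 24 members with a value below 0 outnumbered the 9 above it (median -0.30, beside -0.003 over all genes). Hk2, Eno2 and Slc16a3 fell. Hk2 was at 85.7, 243, 117 and 197 CPM in Hif1a KO kidneys, against 477, 417 and 355 CPM in KI kidneys (log2 fold change -1.37, SE 0.38, edgeR adjusted p = 0.0457). Eno2 was at 19.5, 27.9, 21.9 and 29.3 CPM (log2 fold change -1.01, SE 0.22, edgeR adjusted p = 0.0209), and Slc16a3 at 5.32, 6.34, 5.48 and 5.31 CPM (log2 fold change -1.79, SE 0.39, edgeR adjusted p = 0.019). No Hif1a KO value of these 3 genes reached the lowest KI value, yet each stayed above every Cre(-) value. Pdk4 and Pfkfb4 went up. Pdk4 was at 702, 745, 457 and 664 CPM, above all KI values (log2 fold change 1.33, SE 0.32, edgeR adjusted p = 0.0266), and Pfkfb4 was at 10.6, 7.11, 11.1 and 8.55 CPM, where KI kidneys had 5.98 to 6.52 CPM (log2 fold change 0.58, SE 0.15, edgeR adjusted p = 0.0337). Eno3, by contrast, was at 91.8, 131, 87.5 and 115 CPM and overlapped with KI kidneys.

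This count rested on few libraries: without Hif1a KO replicate 1 no member passed, without Hif1a KO replicate 3 or KI replicate 1 there was 1, without KI replicate 2 there were 2, and without KI replicate 3 there were 3. In a fit of these groups alone 1 member passed, and DESeq2 called 11. Of the thick ascending limb and distal tubule markers 2 of 7 were higher in Hif1a KO kidneys (summed level 1407 to 2727 TPM against 605 to 1040 TPM), and of the 9 leukocyte markers Adgre1 was higher and Cd68 lower (sum 1212 to 1476 TPM against 2001 to 2204 TPM). Gpnmb, which the authors name as a direct target of PRCC-TFE3, was at 2290, 5930, 3790 and 6390 TPM in Hif1a KO kidneys. In KI kidneys it stood at 11100, 12200 and 11100 TPM. It was at 4170, 7420 and 9460 TPM in Hif2a KO and 5060, 2460 and 2940 TPM in DKO kidneys. The part of these markers and of the level of Gpnmb in the members' changes was not tested.

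Deletion of Hif2a gave 2 members that passed, 6.1% beside 1.39% of all genes. Hk3 was at 4.75, 3.68 and 4.86 CPM, above the 1.5 to 2.96 CPM of KI kidneys (log2 fold change 1.13, SE 0.27, edgeR adjusted p = 0.0496), and Pfkfb4 was at 8.90, 10.5 and 10.2 CPM (log2 fold change 0.66, SE 0.15, edgeR adjusted p = 0.0489). Both sit at the edge of the threshold. Without KI replicate 3 or any of the 3 Hif2a KO replicates 0 members passed, and without KI replicate 1 or 2 there was 1; DESeq2 called 3. Hk2 (146, 311 and 485 CPM), Eno2 (27.9, 36.0 and 50.5 CPM) and Slc16a3 (5.36, 9.50 and 13.4 CPM) overlapped with the KI range, with log2 fold changes of -0.41, -0.38 and -1.05 that did not pass, and Hif2a KO replicate 1 was the lowest library for each. Pklr was below all KI values at 56.7, 58.7 and 65.6 CPM, without passing (log2 fold change -0.76, edgeR adjusted p = 0.0999). Of the 9 leukocyte markers, which bear on Hk3, 0 passed by edgeR and 4 had an unadjusted p under 0.05, with a median log2 fold change of 0.33. Their sum was lower (1543 to 1830 TPM in Hif2a KO and 2001 to 2204 TPM in KI kidneys), as was Cd68 (879 to 1250 TPM against 1560 to 1750 TPM), whereas the macrophage marker Adgre1 stood at 11.9 to 16.0 TPM against 6.04 to 9.0 TPM (edgeR adjusted p = 0.0541), and their part in the Hk3 difference was not tested. On log2(TPM + 1) the share of higher genes among all calls was 70.6% in place of 53.4%.

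Deletion of both subunits moved the most members. Of the 33, 11 passed (33.3% beside 12.7% of all genes), 2 higher and 9 lower, where 6.19% of all genes were lower. In 23 members the DKO and KI values did not overlap at all, beside 33.7% of all genes. Slc16a3 fell the furthest, to 4.97, 4.00 and 4.20 CPM (log2 fold change -2.15, SE 0.44, edgeR adjusted p = 0.00739), followed by Hk2 at 226, 140 and 120 CPM (log2 fold change -1.36, SE 0.41, edgeR adjusted p = 0.0414) and Eno2 at 30.9, 18.9 and 19.0 CPM (log2 fold change -1.11, SE 0.24, edgeR adjusted p = 0.0105). Another 6 enzymes of the chain also fell, by smaller amounts. Gpi1 was at 556, 542 and 532 CPM (log2 fold change -0.65), Pfkp at 236, 197 and 200 CPM (-0.57), Aldoa at 800, 778 and 759 CPM (-0.60), Tpi1 at 311, 269 and 267 CPM (-0.56), Gapdh at 1114, 1030 and 1019 CPM (-0.64) and Pklr at 65.2, 54.4 and 53.8 CPM (-0.82), with edgeR adjusted p values between 0.0116 and 0.0327. Pfkl, Pfkm, Pgk1, Pgam1, Eno1, Pkm and Ldha had values of -0.65 to -0.35 and did not pass (edgeR adjusted p of 0.0587 to 0.128). In Gpi1, Pfkp, Aldoa, Tpi1, Gapdh and Pklr the DKO values lay below all KI values, of which replicate 3 was the highest. Hk3 (3.75, 5.06 and 2.98 CPM, log2 fold change 0.95, edgeR adjusted p = 0.0298) and Pfkfb4 (8.18, 10.2 and 9.91 CPM, log2 fold change 0.59, edgeR adjusted p = 0.0228) were higher.

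Tubule markers were higher in DKO than in KI kidneys as well (4 of 7 of the thick ascending limb and distal tubule and 3 of 8 of the collecting duct), and of the 9 leukocyte markers Cd68 was lower (521 to 904 TPM against 1560 to 1750 TPM) and Adgre1 higher (11.4 to 14.5 TPM against 6.04 to 9.0 TPM), with a median log2 fold change of 0.19. The leukocyte sum, carried mostly by Cd68, was 1058 to 1548 TPM against 2001 to 2204 TPM. The part of these markers in the members' changes was not tested. Without KI replicate 3 the count was 4, without DKO replicate 2 it was 3 and without DKO replicate 3 it was 2. In a fit of these groups alone 2 members passed, both lower, and DESeq2 called 18. On log2(TPM + 1) 7 members passed, and 69.9% of all calls were higher in place of 51.3%. KI replicate 3 was the highest KI library for most enzymes from Gpi1 to Ldha, and it is one of the 3 KI libraries that all these comparisons share, so the values of the deletions are given side by side and were not counted together.

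The comparison of Hif1a KO with Hif2a KO kidneys has no KI library on either side, although the spread was estimated from the libraries of all groups. It gave 1 member, beside 0.429% of all genes. Pdk4 was higher in Hif1a KO kidneys (702, 745, 457 and 664 CPM) than in Hif2a KO kidneys (193, 168 and 242 CPM), with no overlap and a log2 fold change of 1.68 (SE 0.32, edgeR adjusted p = 0.036). This held in direction in all 14 alternatives and passed in 6 of them. With any 1 of the Hif1a KO or Hif2a KO libraries left out it did not pass. Among all genes, 76.7% of the calls were higher in Hif1a KO kidneys, against 63.3% with DESeq2 and 58.6% on log2(TPM + 1).

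Taking all 13 PRCC-TFE3 kidneys, the mean of the Hif1a-deleted groups (Hif1a KO and DKO) was compared with the mean of the Hif1a-intact groups (KI and Hif2a KO). Of the 33 members 7 passed, all of them lower, which is 21.2% of the members beside 4.36% of all genes in either direction and 2.67% lower. They were Slc16a3 (log2 fold change -1.44, SE 0.29, edgeR adjusted p = 0.0161), Hk2 (-1.16, SE 0.28, edgeR adjusted p = 0.0303), Eno2 (-0.87, SE 0.17, edgeR adjusted p = 0.0139), Gapdh (-0.43, SE 0.11, edgeR adjusted p = 0.036), Tpi1 (-0.39, SE 0.10, edgeR adjusted p = 0.0453), Pkm (-0.37, SE 0.10, edgeR adjusted p = 0.0488) and Aldoa (-0.36, SE 0.09, edgeR adjusted p = 0.037). Of these, Eno2 and Slc16a3 passed in 18 and 17 of 19 alternatives, Hk2 in 11 and the other 4 in 5 to 9. Without DKO replicate 3 none of the 7 passed, without DKO replicate 2 there was 1, without Hif1a KO replicate 3 or Hif2a KO replicate 2 or 3 there were 2, and without Hif1a KO replicate 4 or KI replicate 3 there were 3.

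The mean of the Hif2a-deleted groups (Hif2a KO and DKO) differed from the Hif2a-intact groups in 3 members, 9.1% beside 7.16% of all genes, a share near the background. Hk3 was higher (log2 fold change 0.97, SE 0.18, edgeR adjusted p = 0.00818), and Pklr (-0.75, SE 0.16, edgeR adjusted p = 0.0142) and Pdk4 (-1.25, SE 0.23, edgeR adjusted p = 0.00818) were lower. These 3 passed in all 19 alternatives. Pdk4 stood at 702, 745, 457 and 664 CPM with Hif1a deleted alone and at 116, 108 and 211 CPM with both deleted, so that the Hif1a KO libraries were the high ones. No member passed the test of interaction, which asks whether the effect of 1 deletion depends on the other (0 of 33 and 0% of all genes by edgeR). At an unadjusted p under 0.05 there were 2 members, Pdk4 (-1.80, edgeR adjusted p = 0.483) and Pfkfb4 (-0.65, edgeR adjusted p = 0.687), and DESeq2 called 1. On log2(TPM + 1), 81.9% of the genes that passed for Hif2a were higher in place of 51.1%.

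Isozyme shares were compared over the same kidneys, 7 with Hif1a deleted and 6 with it intact. Of 28 shares 5 passed, all with an exact permutation adjusted p = 0.0326, and the Hk1, Hk2 and Slc16a1 shares among them moved part of the way toward the Cre(-) kidneys. The Hk2 share was 34.9, 57.8, 35.4 and 48.6% in Hif1a KO kidneys and 52.8, 38.9 and 37.1% in DKO kidneys, against 78.7, 72.6 and 67.0% in KI and 46.7, 63.6 and 71.7% in Hif2a KO kidneys. Hif2a KO replicate 1 brought the groups to overlap. The Hk1 share was 52.3% ± 8.86 against 30.3% ± 9.87. The Slc16a1 share was 59.7% ± 5.59 with Hif1a deleted and 37.7% ± 13.5 with it intact. In each case the deleted kidneys remained far from the Cre(-) kidneys, where Hk2 held 1.04% and Slc16a1 87.3%. The summed proximal tubule markers moved in the same direction (476 to 1020 TPM in Hif1a KO, 623 to 907 TPM in DKO, 419 to 850 TPM in Hif2a KO and 359 to 412 TPM in KI kidneys), and their part in the shares was not tested; 3 of the 10 markers passed in Hif1a KO against KI kidneys and 3 of 10 in DKO against KI kidneys, all higher. With 1 library left out, between 0 and 7 of these shares passed. In 9 of the 13 such settings none did.

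**Figure D4:**
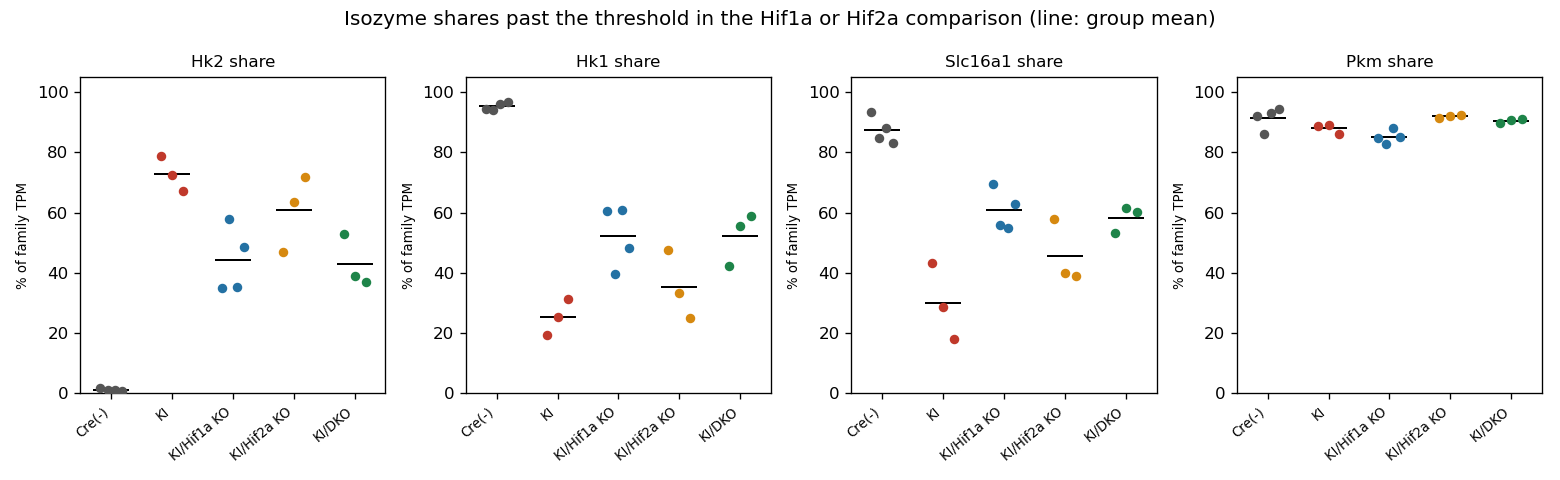
Share of the family TPM (%) of 4 isozymes in each library, by genotype, with a line at the group mean. The Hk2, Hk1 and Slc16a1 shares passed for Hif1a deletion and the Pkm share for Hif2a deletion, where all Hif2a KO and DKO libraries lie above all KI and Hif1a KO libraries.

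With Hif2a deleted, 1 share passed. Pkm held 91.6, 92.1 and 92.6% of pyruvate kinase TPM in Hif2a KO and 89.7, 90.6 and 91.2% in DKO kidneys, against 88.9, 89.0 and 86.1% in KI and 84.7, 82.8, 88.0 and 85% in Hif1a KO kidneys. The groups did not overlap (91.3% ± 1.04, n = 6, against 86.4% ± 2.37, n = 7, exact permutation adjusted p = 0.0326), beside the lower Pklr counts given above. With 1 library left out the difference was 4.32 to 5.36 percentage points and passed in 1 setting, without KI replicate 1; in the other 12 settings it did not pass (exact permutation adjusted p of at most 0.0707). The Pdk4 share, 33.1% ± 6.96 with Hif2a deleted and 53.9% ± 15.3 with it intact, did not pass (exact permutation adjusted p = 0.136), since the difference lay between the Hif1a KO kidneys at 64.7, 70.8, 58.8 and 68.0% and all other groups.

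Of the 46 tested genes of the other pathway lists, 5 passed when Hif1a was deleted. Slc2a5 (log2 fold change 2.15), Fbp1 (1.53), Slc5a2 (1.39), Slc5a1 (0.86) and Ldhd (0.82) were higher in Hif1a KO than in KI kidneys, and no gene of the 4 lists was lower. In DKO kidneys the same 5 genes were higher (0.79 to 1.63 in log2 fold change), and Trib3 (-0.95), Pgd (-0.69), Pgls (-0.40) and G6pdx (-0.40) were lower, the last 3 being enzymes of the pentose phosphate pathway. In Hif2a KO kidneys none of the 46 tested genes of these lists passed by edgeR, with 6 at an unadjusted p under 0.05. Slc2a5, Slc5a2 and Fbp1 are genes of the proximal tubule. Of its 10 markers, 3 were higher in Hif1a KO and 3 in DKO against KI kidneys by edgeR. The part of the proximal tubule in these changes was not tested.

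The members still differed from controls without either subunit. Between DKO and Cre(-) kidneys 25 of the 33 passed (75.8% beside 58.3% of all genes), 10 higher and 15 lower. Hk2 stayed 102-fold higher (log2 fold change 6.67, SE 0.50, edgeR adjusted p = 5.86e-08), Eno2 10.7-fold (3.42, SE 0.27, edgeR adjusted p = 9.87e-08), Eno3 10.6-fold (3.41, SE 0.22, edgeR adjusted p = 1.27e-08) and Slc16a3 2.80-fold (1.48, SE 0.44, edgeR adjusted p = 0.00859). The log2 fold changes of KI against the same Cre(-) libraries were 8.03, 4.53, 4.07 and 3.63 for these 4 genes. Hk3, Pfkp, Pdk4, Pfkfb1, Pfkfb2 and Pfkfb3 also stayed higher. Several enzymes of the chain lay below the controls, with Gapdh at -0.84, Tpi1 at -0.66, Pgk1 at -1.09, Pgam1 at -1.05 and Eno1 at -1.03 in log2 fold change (edgeR adjusted p of 3.68e-06 to 0.00104), where these genes had lain between -0.70 and -0.09 in KI kidneys. Gpi1 (-0.05), Aldoa (-0.09) and Pkm (0.07) did not pass. On log2(TPM + 1) the members split into 17 higher and 6 lower in place of 10 and 15, 84.4% of all calls were higher in place of 52.1%, the median over all genes was 0.46 in place of 0.02, and Hk1, Gpi1, Pfkl, Aldoa, Ldha and Pdk1 turned positive.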

How the data were processed

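Whole-kidney mRNA libraries of 5 genotype groups were analysed: Cre(-) (n = 4), KI (n = 3), Hif1a KO (n = 4), Hif2a KO (n = 3) and DKO (n = 3), grouped by the genotype labels. The authors trimmed reads with Trim Galore 0.6.6 (cutadapt 2.5), aligned them with STAR 2.7.9a and counted them with RSEM; the strand setting of the counting is not given in the sources used here. Both hg38 and GRCm38 are named, but the features are mouse transcripts. The deposited values are RSEM expected counts per transcript, not normalized, and TPM per transcript, computed by the authors.

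Of 119353 transcripts, 116770 were matched to GENCODE M21 and summed to 35971 genes, and expected counts were then rounded. Genes passing filterByExpr with a minimum count of 10 (17011) were tested with edgeR 4.0.16 (R 4.3.3), TMM scaling and quasi-likelihood tests in 1 model of all groups, with Benjamini-Hochberg adjustment over all tested genes and a threshold of 0.05. CPM used TMM-scaled totals. Isozyme shares were computed in Python 3.11.15 from TPM and compared by exact two-sided permutation tests over libraries. Alternatives were DESeq2 1.42.0, DESeq2 size factors, no filter, limma 3.58.1 on log2(TPM + 1) and log2(TPM + 0.1), a replicate block and fits of the compared groups alone. Others were controls with or without the flox allele only, and leaving out each library of the groups compared. For shares the alternatives were expected counts, log2 ratios, protein-coding transcripts and leaving out each library of the groups compared. The procedures were tested on simulated data.

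Values per library are given for members that passed between KI and Cre(-) kidneys with an absolute log2 fold change of at least 1, passed in a comparison of a HIF deletion with KI, or had an isozyme share that passed; of each other pathway list, genes among the 3 with the largest change are named; some results of these lists and shares are not reported here. The members and gene lists were chosen with earlier results of these data known. Totals of 16504419 to 24668827 counts set the precision, which is lowest for members near 1 CPM.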

Additional observations from a re-analysis of the deposited data

Results flagged for a closer look

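Of 106 groups of 4 libraries examined for a value standing apart from the others, 6 had a gap above Dixon's 95% critical value for 4 samples, as a share of the group's range, where chance gives about 5%. Eno1 was at 1143 CPM in Cre(-) replicate 2, against 743 to 780 CPM in the other controls (gap over range 0.907). Slc16a3 was at 6.34 CPM in Hif1a KO replicate 2, against 5.31 to 5.48 CPM (0.834). Pfkfb3 was at 42.3 CPM in Cre(-) replicate 4, against 29.2 to 31.3 CPM (0.84). The Hk3 share was 0.436% in Cre(-) replicate 1, against 0.281 to 0.306% (0.839). The M2 type of Pkm was 78.4% in Hif1a KO replicate 1, against 68.3 to 69.3% (0.897), and 67.8% in Cre(-) replicate 2, against 57.7 to 58.5% (0.918). Cre(-) replicate 2 is thus the high library for both Eno1 and the M2 type. The Gapdh copies Gm12671 and Gm10359 each stood at 199.4 CPM in that library and near 0 in the other libraries.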

How the results depend on the processing

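Counts of members that passed moved as follows. Hif1a KO against KI kidneys (5) gave 11 with DESeq2, 3 on log2(TPM + 0.1), 1 in a fit of these groups alone and 0 to 6 with 1 library left out. Hif2a KO against KI (2) gave 1 with DESeq2 size factors or on log2(TPM + 1), 0 with no filter, on log2(TPM + 0.1) or in the fit of these groups alone, and 0 to 1 with 1 library left out. DKO against KI (11) gave 18 with DESeq2, 7 on either log2 TPM scale, 2 in the fit of these groups alone and 2 to 16 with 1 library left out. Hif1a KO against Hif2a KO (1) gave 2 with DESeq2 or in the fit of these groups alone and 0 to 0 with 1 library left out. The Hif1a groups (7) gave 12 with DESeq2, 4 with no filter or on log2(TPM + 0.1) and 0 to 9 with 1 library left out. The Hif2a groups (3) gave 7 with DESeq2 and 3 to 6 with 1 library left out, and the interaction (0) gave 1 with DESeq2. KI against Cre(-) (26) ranged from 23 to 30 and DKO against Cre(-) (25) from 20 to 24 with 1 library left out. Isozyme shares for PRCC-TFE3 (19) ranged from 16 to 19 and for Hif1a (5) from 0 to 7; for Hif2a (1) there were 3 from expected counts, 4 from protein-coding transcripts (an alternative chosen after seeing the data) and 0 to 2 with 1 library left out. For Hif2a, a lone share could not pass with 1 library left out, as given above. The cause of the other differences was not tested.

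Values of the opposite sign, on log2(TPM + 1) and log2(TPM + 0.1), were for KI against Cre(-) Tpi1 0.368 and 0.369, Ldha 0.354 and 0.355, and Pdk1 0.497 and 0.517, and for DKO against Cre(-) Hk1 0.092 and 0.094, Gpi1 0.53 and 0.531, Pfkl 0.019 and 0.02, Aldoa 0.485 and 0.485, Ldha 0.092 and 0.092, and Pdk1 0.167 and 0.175. Pfkl in KI against Cre(-) was -0.336 without KI replicate 3, and 0.282 at most with another library left out.

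Libraries that share a replicate number did not deviate together in every pair (correlations from -0.206 to 0.135, -0.151 to 0.249 and -0.223 to 0.146 for numbers 1, 2 and 3). The main fit did not use the numbers as pairs, and these correlations cannot exclude pairing of some libraries. With the replicate block, 3 members passed for Hif1a KO against KI, 0 for Hif2a KO against KI, 0 for Hif1a KO against Hif2a KO and 3 for the Hif1a groups.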
